A study of Mus musculus with 2 samples.

Results

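The genes described here encode the proteins of the mitochondrial ribosome. They were taken as all protein-coding genes of the GENCODE M21 annotation whose symbol begins with Mrpl or Mrps followed by a digit, which gave 78 of 55536 annotated genes and 78 of 22028 protein-coding genes. Of these, 51 encode proteins of the large ribosomal subunit and 26 proteins of the small subunit. The remaining gene, Mrps36, carries a ribosomal name, but its product is a component of the 2-oxoglutarate dehydrogenase complex. Mrps18a and Mrps30 were placed in the large subunit, where their proteins reside, against their names. The rule left out 5 processed pseudogenes with related names (Mrpl23-ps1, Mrpl48-ps, Mrps36-ps1, Mrps36-ps2 and Mrps36-ps3).

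Total RNA was sequenced from the heart of adult female mice of the cross labelled 5xFAD X Cast, aged 8 to 10 months, from 300 ng of RNA per library. The 5xFAD line models Alzheimer's disease with mutant human transgenes that the Thy1 promoter drives mainly in neurons. Cast refers to CAST, an inbred strain derived from wild mice. There was 1 group of 2 libraries, named replicate 1 and replicate 2, with no other genotype, tissue or age to compare with. Both libraries carried the same donor identifier in the labels, although their biosamples were listed separately, so an SD over n = 2 measures only the spread between these libraries and no test of a condition was possible. Transgene and CAST allele expression was not analysed here.

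Mitochondrial ribosomes translate the few proteins encoded by mitochondrial DNA, all of them core subunits of the respiratory chain and the ATP synthase. Their ribosomal RNAs are made inside the organelle, whereas every ribosomal protein is encoded in the nucleus, translated in the cytosol and imported. Many of these proteins descend from the bacterial ribosome, and others were added in the mitochondrial lineage. Heart muscle is dense in mitochondria and draws most of its ATP from them.

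The libraries held 45599940 and 40801299 expected counts, the fractional read counts of the deposited gene tables. The 6 heart muscle markers examined had mean levels from 366 to 7882 transcripts per 1000000 (TPM), which measures abundance per transcript length, here over endogenous genes. The 3 brain markers had means at or below 1.97 TPM. Of the 2 liver markers, Alb was at 0.091 TPM in replicate 1 and 1.49 TPM in replicate 2. In bulk tissue, fewer cells of a type and less RNA per cell cannot be told apart. Expected counts of the median member were 986 and 914, and those of the lowest, Mrpl23, were 20.2 and 87.9.

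Mitochondrial ribosomal protein genes were expressed at moderate and similar levels. The median member stood at 26.0 TPM in replicate 1 and 28.6 TPM in replicate 2, a mean of 27.4 ± 1.84 TPM (SD, n = 2). The quartiles of the members lay at 20.4 and 43.8 TPM. At least 1 TPM in both libraries was reached by 77 of 78 members, against 49.0% of all protein-coding genes. Protein-coding genes that passed this minimum had a median of 7.80 TPM. Of the 77 members that passed, 57 (74.0%) lay within 2-fold of their own median, whereas 43.0% of the passing protein-coding genes lay within 2-fold of theirs. Such closeness was not particular to the members, since the same share was 76.0% in mitochondrial ribosome assembly factors. It was 79.5% in genes named as cytosolic ribosomal proteins and 83.3% in genes named as complex I subunits. The share was lower in mitochondrial translation factors (53.3%) and in mitochondrial aminoacyl-tRNA synthetases (64.7%). Together the 78 genes held 2773 TPM in replicate 1 and 2984 TPM in replicate 2, which was 0.835% and 0.862% of all TPM on nuclear protein-coding genes.

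**Figure D1:**
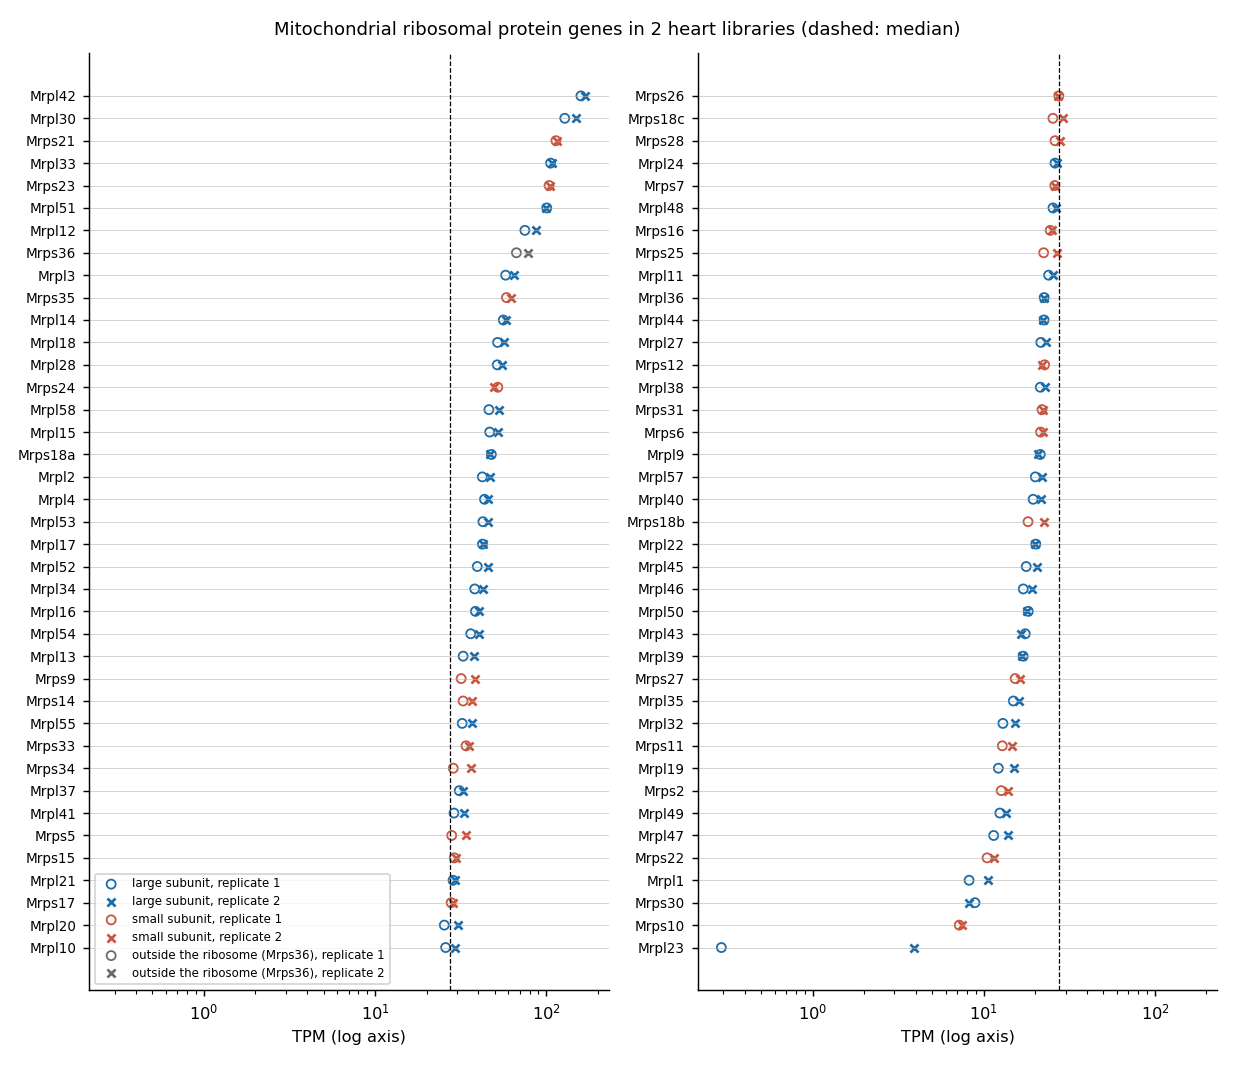
TPM of each of the 78 members in replicate 1 (circles) and replicate 2 (crosses) on a log axis, ordered by mean TPM from the upper left to the lower right and coloured by subunit. Members ran from Mrpl42 at a mean of 164 TPM to Mrpl23 at 2.10 TPM, the dashed line is the median of 27.4 TPM, and only for Mrpl23 are both symbols far apart.

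Large subunit members had a median of 26.0 and 29.5 TPM in replicates 1 and 2, and small subunit members 26.0 and 27.5 TPM. The ratio of the large to the small subunit median was 1.00 in replicate 1 and 1.07 in replicate 2 (1.04 ± 0.051, SD, n = 2). The ratio lay within its SD of 1. By origin, the 46 members with a bacterial counterpart had a median of 28.1 TPM and the 31 proteins specific to mitochondria 24.6 TPM. Within the large subunit, the 30 members with a bacterial counterpart stood at 31.8 ± 2.33 TPM and the 21 specific ones at 22.3 ± 0.289 TPM (SD of the library medians, n = 2). This SD does not measure the spread over genes. The quartiles over genes overlapped, at 21.3 and 48.3 TPM with a counterpart and 18.1 and 42.5 TPM for the specific ones. In the small subunit the same classes, of 16 and 10 members, stood at 27.0 ± 1.46 and 26.0 ± 1.56 TPM.

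The most abundant member was Mrpl42, a mitochondria-specific protein of the large subunit, at 160 TPM in replicate 1 and 169 TPM in replicate 2. It was followed by Mrpl30, a large subunit protein shared with bacteria, at 129 and 149 TPM. Mrps21, a small subunit protein related to bacterial S21, stood at 114 and 115 TPM. In the quantification from alignments, which the levels given here use, Mrpl42 was above Mrpl30 in each library and Mrpl30 above Mrps21. Computed directly from reads, Mrpl42 stayed highest at 162 and 177 TPM. Mrpl30 then had 109 and 129 TPM and Mrps21 129 and 121 TPM, so their order was reversed in replicate 1.

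Mrpl33, which contributes to the large subunit near the tRNA exit site, stood at 106 and 109 TPM. Mrps23, a mitochondria-specific small subunit protein, reached 104 and 105 TPM, and Mrpl51 of the large subunit 101 and 100 TPM. Mrpl33, Mrps23 and Mrpl51 thus kept their order in both libraries with gaps of a few TPM in the quantification from alignments. Computed directly from reads, Mrpl33 had 137 and 141 TPM, Mrpl51 93.3 and 91.9 TPM, and Mrps23 69.8 and 71.7 TPM. The order of Mrps23 and Mrpl51 thus depended on the quantification.

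Mrpl12, the stalk protein that contacts translation factors, had 75.2 TPM in replicate 1 and 87.6 in replicate 2. Mrps36, the member outside the ribosome, had 67.1 and 78.2 TPM. From alignments, Mrpl12 was above Mrps36 in each library, although their ranges over both libraries overlapped. Computed directly from reads, Mrpl12 (73.6 and 85.8 TPM) was below Mrps36 (75.7 and 86.7 TPM) in each library.

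Mrpl23 had the lowest level, 0.29 and 3.91 TPM, but that level depended on the quantification. No other member had a mean below 7.31 TPM. Mrps10, a small subunit protein of the head, had 7.17 and 7.44 TPM. Mrps30, placed in the large subunit, had 8.86 and 8.14 TPM, and Mrpl1, of the mobile stalk that contacts the exiting tRNA, 8.19 and 10.6 TPM. The values of Mrps30 and Mrpl1 overlapped between libraries, and both lay above Mrps10 in the quantification from alignments. Computed directly from reads, Mrps30 (7.63 and 7.13 TPM) and Mrpl1 (7.34 and 9.20 TPM) overlapped with Mrps10 (7.05 and 7.46 TPM).

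Mrps22, specific to the mitochondrial small subunit, had 10.4 and 11.5 TPM. Mrpl47 and Mrpl49 of the large subunit had 11.4 and 13.9 TPM and 12.4 and 13.4 TPM. Mrps2, a small subunit protein with a bacterial counterpart, had 12.6 and 13.8 TPM. From alignments, Mrps22 overlapped with Mrpl47, and Mrpl47, Mrpl49 and Mrps2 overlapped with each other. Computed directly from reads, Mrps22 (9.08 and 9.71 TPM) and Mrps2 (11.6 and 12.5 TPM) lay below Mrpl47 (13.7 and 16.3 TPM).

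The Mrps18 family is a special case. Mrps18a, Mrps18b and Mrps18c are relatives of the bacterial protein S18 that sit at different places of the mitochondrial ribosome. Mrps18a, which belongs to the large subunit, had 47.9 and 46.9 TPM. Mrps18c had 25.3 and 28.8 TPM and Mrps18b 18.1 and 22.6 TPM, both in the small subunit. The order Mrps18a, Mrps18c, Mrps18b held without overlap.

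Longer members had lower TPM. Across the 78 members, TPM and the length given in the gene tables had a Spearman correlation of -0.57, against -0.19 over the 10784 detected protein-coding genes. The lengths ran from 411 bases (Mrpl52) to 3324 bases (Mrps30), with a median of 956 bases. Length enters the computation of TPM, and expected counts of the members had a correlation of 0.20 with length. These coefficients describe genes of the same libraries, which are not independent replicates.

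Other genes of the pathway are given from lists made for this description. The 5 proteins of the mitochondrial ribosome with other names had a median of 42.3 TPM. Of these, the small subunit GTP-binding protein Dap3 (46.0 and 50.1 TPM) and the pentatricopeptide repeat protein Ptcd3 (42.6 and 43.0 TPM) were highest by mean TPM, and Gadd45gip1 of the large subunit (10.0 and 10.8 TPM) was lowest.

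The 25 assembly factors had a lower median of 8.76 TPM. They were led by the RNA helicase Dhx30 (18.2 and 20.1 TPM) and Mterf3 (17.6 and 17.0 TPM) and ended with the endoribonuclease Ybey (1.14 and 1.15 TPM). The 15 translation factors and regulators had a median of 17.5 TPM, with the elongation factors Tufm (92.9 and 92.8 TPM) and Gfm1 (73.9 and 67.8 TPM) highest and the formyltransferase Mtfmt (2.22 and 2.18 TPM) lowest. The 17 mitochondrial aminoacyl-tRNA synthetases, which charge tRNAs in the organelle, had a median of 8.75 TPM, from Lars2 (45.1 and 26.5 TPM) and Fars2 (29.2 and 28.5 TPM) down to Mars2 (1.44 and 1.72 TPM). Every gene of these 3 lists reached 1 TPM in both libraries. Lars2 had 131 and 73.9 TPM in the tables computed directly from reads, so its level depended on the quantification.

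For comparison, the 80 genes named as cytosolic ribosomal proteins had a median of 176 TPM. The 36 genes named as nuclear subunits of respiratory complex I, which assembles with mitochondrially translated partners, had a median of 288 TPM. The members' median was thus below both. No sample serves as a reference for these gaps, and the lists differ in gene length.

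The libraries gave nearly the same values for the members. Ratios of expected counts, replicate 2 over replicate 1, were scaled with TMM factors and given on the log2 scale with a prior count of 2. The median log2 ratio was 0.036, against -0.0022 over the 11634 protein-coding genes whose mean count was 50 or more, a minimum that all 78 members passed. The median absolute log2 ratio was 0.076 in the members and 0.10 in all those genes. In 53 members the ratio was above 0 and in 25 below it (68.0% above, against 49.4% of the protein-coding genes). Scaled to the spike-ins all 78 were above 0, where the median of all protein-coding genes was itself shifted to 0.22.

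A log2 ratio of at least 0.32 in size, meaning 25% or more above the other library, was found for 1 of 78 members (1.28%). This was Mrpl23, which was higher in replicate 2. In the background 5.31% of genes were past this threshold with replicate 2 higher and 4.44% with replicate 2 lower, 9.76% in all. Of the 4 lists of the pathway, only the synthetases had genes past it, 2 of 17, with Lars2 at -0.83 and Nars2 at -0.32, which lay on the threshold itself.

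**Figure D2:**
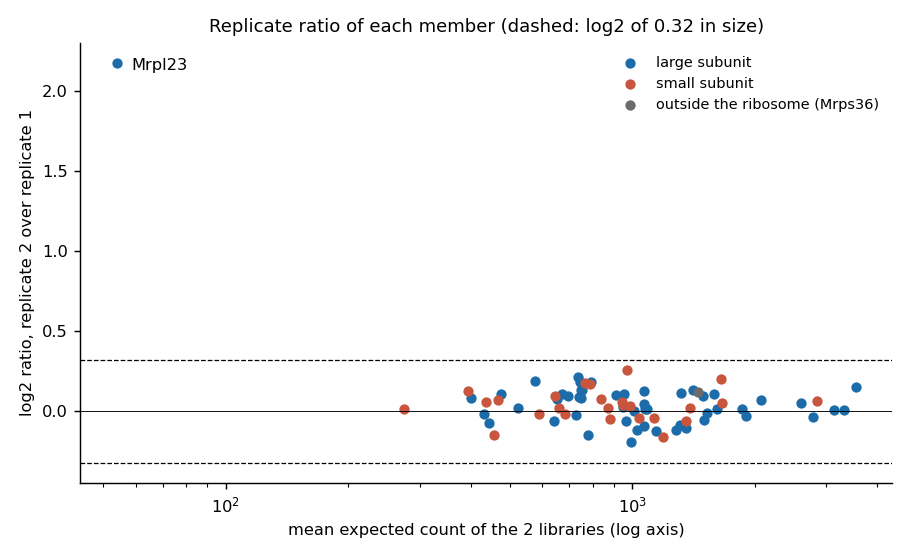
Log2 ratio of expected counts, replicate 2 over replicate 1 (vertical axis), against the mean expected count on a log axis for the 78 members, coloured by subunit, with dashed lines at a log2 ratio of 0.32 in size. Mrpl23 lies at 2.17 and the other 77 members between -0.19 and 0.26.

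After Mrpl23 the highest ratios belonged to Mrps34, Mrpl19, Mrps9 and Mrpl20. Mrps34, a mitochondria-specific small subunit protein, had 28.7 TPM in replicate 1 and 36.3 in replicate 2, a log2 ratio of 0.26 (fold interval 1.09 to 1.31 at 95%, from counting error only). Mrpl19 and Mrpl20 of the large subunit had log2 ratios of 0.22 and 0.19, and Mrps9 of the small subunit 0.20. These 4 members lay under the threshold.

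At the other end, Mrps30 had 1108 counts in replicate 1 and 875 in replicate 2, a log2 ratio of -0.19 (fold interval 0.801 to 0.958). It was followed by Mrps24 (-0.16), Mrpl43 (-0.15), Mrps12 (-0.14) and Mrpl9 (-0.12). Mrps12 lines the decoding centre, and Mrps24 lies at the mRNA entry. Scaled to the spike-ins, these 5 ratios were above 0.

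Mrpl23, a large subunit protein at the exit of the peptide tunnel, was the member on which the kinds of table disagreed. The gene lies on the plus strand at chr7:142532686-142540747 (mm10). The tables made from alignments gave it 0.29 TPM in replicate 1 and 3.91 TPM in replicate 2, from 20.2 and 87.9 expected counts, a log2 ratio of 2.17 (fold interval 2.98 to 8.37, counting error only). The credibility bounds that the authors deposited with the TPM were wider and overlapped, at 0.70 to 7.48 in replicate 1, which does not hold the 0.29 TPM itself, and 2.42 to 15.7 in replicate 2. The tables made directly from reads gave 45.4 and 52.4 TPM, from 944 and 887 estimated counts, a log2 ratio of 0.11.

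The alignment-based tables listed 808 and 737 counts, or 43.4 and 46.0 TPM, on Mrpl23-ps1, a processed pseudogene on the minus strand at chr2:74591330-74591909. In the direct tables Mrpl23-ps1 was listed at 0 in both libraries. Summed, Mrpl23 and Mrpl23-ps1 had 828 and 825 alignment-based counts, of which Mrpl23 took 2.44% in replicate 1 and 10.7% in replicate 2. The log2 ratio of the sum was 0.14, an addition made after the values were seen. Both kinds of table therefore placed the pair at 43.7 to 52.4 TPM with log2 ratios under 0.32, and they divided it in opposite ways.

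The pseudogene carries the coding sequence of Mrpl23 without a difference. Transcript Mrpl23-201 has 692 bases in 5 exons with a coding sequence of 441 bases. Of these 692 bases, 540 aligned with the 580 bases of Mrpl23-ps1 with 0 differing bases and 0 gaps, and they include all 441 coding bases and the 4 exon junctions among them. Only the first 150 bases of the transcript and its last 2 lay outside, and the pseudogene ends in 39 bases of which 39 are A. The first 120 coding bases are printed because, in the reference sequence, a read inside them carries no letter that separates gene and copy. They were read from the GENCODE M21 transcript and occur in the pseudogene at chr2:74591773-74591892 (mm10). Capitals mark 4 bases on each side of the first exon junction, after coding base 17.
Mrpl23: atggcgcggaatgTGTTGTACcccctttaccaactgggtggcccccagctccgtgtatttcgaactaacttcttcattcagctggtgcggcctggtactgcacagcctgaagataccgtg

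The annotated transcripts of Mrpl23 showed where the replicates parted. In replicate 1 the alignment-based counts lay on 2 retained-intron transcripts, Mrpl23-205 (16.1 counts) and Mrpl23-203 (4.07 counts), and all 3 coding transcripts were listed at 0. In replicate 2 the same transcripts had 19.0 and 2.02 counts, and coding transcripts Mrpl23-201 and Mrpl23-207 had 41.1 and 25.2 counts. The retained-intron counts were thus similar, and the difference lay in coding transcripts. Mrpl23-207 also aligned with the pseudogene without a difference, over 507 of its 590 bases.

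**Figure D3:**
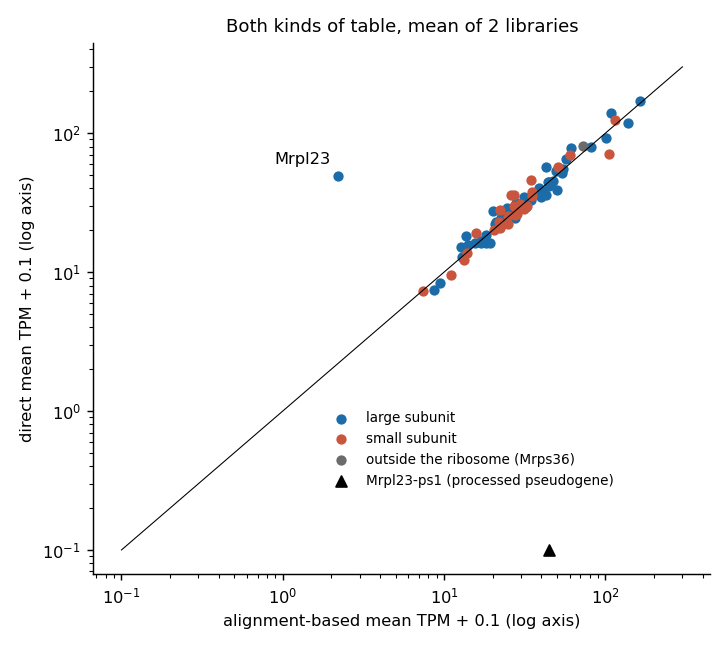
Mean TPM + 0.1 of the 2 libraries in the direct tables (vertical) against the alignment-based tables (horizontal), both on log axes, for the 78 members coloured by subunit and for Mrpl23-ps1 (triangle), with a line of equality. Mrpl23 lies far above the line and Mrpl23-ps1, listed at 0 in the direct tables, at the lower edge.

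Across the members, Mrpl23 was the only gene at least 1.5-fold apart between the kinds of table, at 19.0-fold on mean TPM with a pseudocount of 0.5. Among protein-coding genes at 5 TPM or more in both libraries by either quantification, 1.76% were at least 1.5-fold higher and 1.09% at least 1.5-fold lower in the direct tables. Apart by less than 0.32 on the log2 scale were 66 of 78 members (84.6%) and 88.1% of all those genes. Mrps23 had the lowest ratio of direct to alignment-based TPM, a log2 value of -0.56, with 69.8 and 71.7 TPM against 104 and 105 TPM. The Spearman correlation of both quantifications over the members was 0.92, and 0.97 without Mrpl23.

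Sequence shared with other genes was counted for every member as the percentage of a gene's 31-base transcript words that recur in another gene. For Mrpl23, whose retained-intron transcripts add words of their own, this came to 14.0%. No word was shared for 24 members, at least 10% for 18, and at least 50% for 1. That member, Mrpl53 (42.7 and 45.5 TPM), shared 84.4% of its words with the overlapping protein-coding gene model Gm42688, which had 0.62 and 0.64 TPM. For 24 members the gene with the most shared words was a pseudogene. Shared words were not counted for all protein-coding genes, so the counts of members are not read as a trait of them. Mrps33, a small subunit protein at 34.0 and 35.3 TPM (45.1 and 46.8 in the direct tables), shared words with the processed pseudogene Gm5776, which was at 12.7 and 10.6 TPM (4.58 and 6.45). Mrpl48 of the central protuberance, at 25.3 and 26.2 TPM, had its copy Mrpl48-ps at 6.42 and 6.17 TPM (2.83 and 3.32 in the direct tables). The 3 processed copies of Mrps36 stayed at or below 0.31 TPM in either library. Mrps34, at 28.7 and 36.3 TPM, shared 35.6% of its words with the overlapping gene Nme3, which was at 9.36 and 12.7 TPM. Mrps24, at 52.2 and 49.6 TPM, shared 13.2% with the overlapping gene Urgcp, which was at 18.9 and 23.4 TPM. The levels of Mrpl53, Mrps34, Mrps33, Mrps24, Mrpl48 and Mrpl23 are uncertain to this extent. They are examples and not a full list. Mrpl27 (35.5%), Mrps18c (32.8%) and Mrpl22 (29.8%) shared a larger part of their words than Mrps33 (15.6%). The genes that shared most words with them were at or below 0.23 TPM in either library. Mrpl22 had 20.1 and 19.9 TPM from alignments and 27.4 and 27.7 TPM in the direct tables.

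The TPM of most members lay mainly on 1 annotated transcript. The main transcript, the one with the largest share of a gene's TPM, held a median of 91.5% over the 77 members that passed 1 TPM in both libraries (90.85% in replicate 1 and 90.74% in replicate 2). Over all detected protein-coding genes it held 67.95%, while the median number of annotated transcripts was 4 in the members and 5 in all. In 40 members it held at least 90%, and in 8 under 50%, against 26.5% of detected protein-coding genes under 50%. The 8 were Mrpl48, Mrps5, Mrpl55, Mrps23, Mrpl24, Mrps10, Mrpl30 and Mrps33. Mrpl48 was the most divided, with 27.5% and 32.2% on its main transcript Mrpl48-207. In the other 7 the mean share ran from 34.7% (Mrps5) to 49.9% (Mrps33).

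In 16 of the 77 members (20.8%) the main transcript was one that the annotation does not class as protein_coding, against 6.79% of detected protein-coding genes. Of these main transcripts 4 were classed as retained introns, 6 as targets of nonsense-mediated decay and 6 as processed transcripts without a coding sequence. By expected counts, which do not divide by length, 10 members had such a main transcript, against 3.50% of all detected genes. In 8 members the coding transcripts together held under 10% of TPM, and the same 8 did so in the direct tables. Reads are shared between overlapping transcripts, so these shares are estimates of the quantifiers.

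Mrpl51 was the most abundant of the 16 members whose main transcript is not classed as protein_coding. No other of the 8 highest by TPM had such a main transcript. Its processed transcript Mrpl51-202 held 60.0% and 60.7% of TPM in replicates 1 and 2, and the coding transcript Mrpl51-201, which is 3427 bases long against 855, held 6.88% and 8.63%. By expected counts Mrpl51-201 held 29.6%. Mrps26 and Mrps25 of the small subunit and Mrpl57 of the large subunit had a retained-intron main transcript with 97.1%, 66.1% and 93.5% of TPM. Mrps24 likewise had 78.4% on the retained-intron transcript Mrps24-201. For Mrps14 the main transcript, classed under nonsense-mediated decay, held 91.6% and 95.6%, and for Mrps16 a processed transcript held 96.5% and 96.2%. Mrpl3, near the peptidyl transferase centre, had 59.5% and 48.3% on a transcript of the decay class.

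The other members with a main transcript of the decay class were Mrpl32 (82.8%), Mrps11 (63.8%), Mrpl35 (62.5%) and Mrpl13 (59.4%), as means of both libraries. Those with a processed main transcript were Mrpl47 (56.5%), Mrps35 (56.4%), Mrpl15 (55.9%) and Mrpl19 (50.8%). In this second set the main transcript held little more than the other transcripts of the gene combined. By expected counts the main transcript of Mrpl19, of 419 bases, held 10.7%, and the coding transcript Mrpl19-201, of 5000 bases, held 78.8%. The coding transcript Mrpl13-205 likewise held 53.2% of the counts of Mrpl13. For Mrpl15 the processed transcript Mrpl15-202 still held 61.2% of counts.

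**Figure D4:**
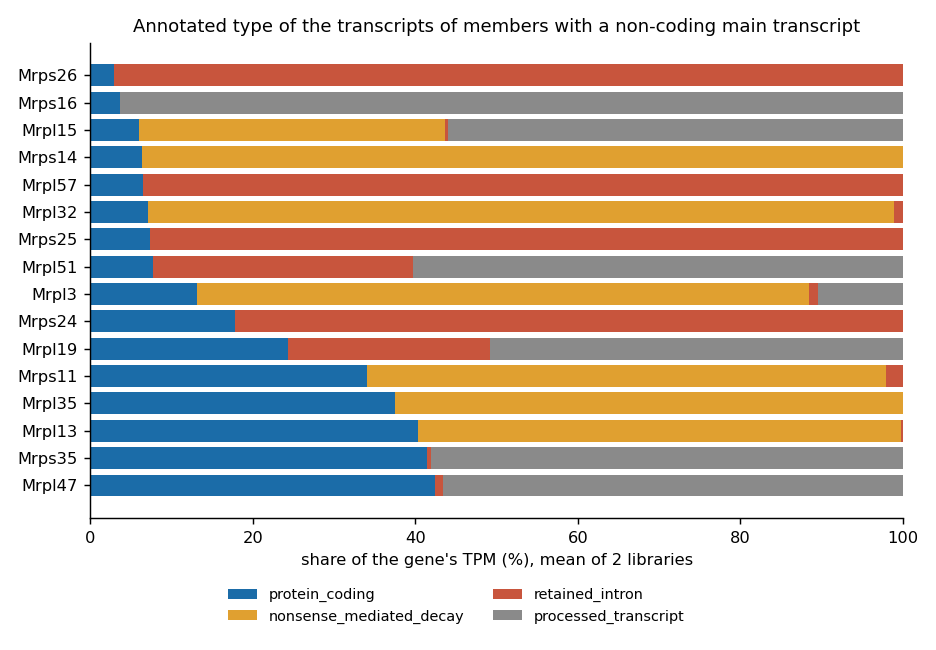
Share of a gene's TPM (%, mean of 2 libraries, alignment-based tables) by annotated transcript type for the 16 members whose main transcript is not classed as protein_coding. Coding transcripts hold under 10% in the 8 uppermost genes and 42.4% in Mrpl47 at the bottom.

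The main transcript was the same in the direct tables for 63 of the 77 members. Among the others, Mrpl33 had 90.1% on the coding transcript Mrpl33-201 in the alignment-based tables and 10.4% in the direct ones, where 67.3% lay on a processed transcript. Mrps21 had 72.5% on Mrps21-202 and 27.3% on Mrps21-201, against 21.2% and 74.9% in the direct tables, and both are coding. The choice of transcript for these 2 genes thus rested on the quantifier. In 8 members the main shares of the libraries differed by 10 points or more.

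Members were spread over 17 chromosomes, with 11 of them on chromosome 11. Their starts often faced the start of another gene. In 33 of 78 members (42.3%) the annotated start lay within 1000 bp of the start of a protein-coding gene on the other strand transcribed away from it or overlapping it at the starts, against 10.8% of protein-coding genes and 16.6% of those detected. All 33 were among the 77 detected members (42.9%). In 21 pairs the distance was at most 200 bp. Of the partners, 26 reached 1 TPM in both libraries, with a median over all 33 of 7.78 TPM.

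The partners were of many kinds, and 5 that encode mitochondrial proteins are given as examples chosen after their values were seen, without a count over all 33. Mrpl36 (22.5 and 22.5 TPM) faces Ndufs6, a complex I subunit at 449 and 448 TPM. Mrpl47 faces Ndufb5, another complex I subunit, at 279 and 294 TPM. Mrpl43 (17.4 and 16.4 TPM) faces Twnk, the mitochondrial DNA helicase, at 11.2 and 10.9 TPM. Mrps12 (22.6 and 21.8 TPM) faces the mitochondrial seryl-tRNA synthetase Sars2 at 4.50 and 5.10 TPM, and Mrps27 (15.2 and 16.3 TPM) faces Ptcd2, a mitochondrial pentatricopeptide repeat protein gene, at 17.0 and 18.3 TPM.

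Levels of the facing genes differed widely in some pairs and little in others, and the pairs given are examples. Mrpl30 stood at 129 and 149 TPM and its partner Mitd1 at 1.08 and 1.45 TPM. Mrpl51 faced Ncapd2, a condensin subunit, at 4.87 and 5.59 TPM, whereas Mrpl49 (12.4 and 13.4 TPM) faced Fau, which encodes a cytosolic ribosomal protein, at 202 and 199 TPM. Mrpl54 (36.2 and 40.5 TPM) and Apba3 (34.1 and 36.8 TPM) were near each other. Of the 33 members, 26 were above their partner in both libraries and 7 below it, with Mrps11 and Mrpl46 counted from both sides. The median detected member, Mrpl10, was itself above 83.0% of all detected protein-coding genes. The count is therefore not read as a trait of facing starts.

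Mrps11 and Mrpl46 face each other, so that both genes of the pair are members. Mrps11 of the small subunit had 12.8 and 14.6 TPM and Mrpl46 of the large subunit 17.0 and 19.2 TPM. By the GENCODE starts used for the count of pairs, chr7:78783119 for Mrps11 and chr7:78783531 for Mrpl46, the genes overlap. The RefSeq starts (build GRCm38.p6) lie 42 bp apart on chromosome 7 without overlap. The stretch chr7:78783060-78783160 is shown on the plus strand, in the direction of Mrps11, because it holds the RefSeq starts of a gene for each subunit. Capitals mark the 41 bases between the RefSeq starts.
Mrps11 and Mrpl46: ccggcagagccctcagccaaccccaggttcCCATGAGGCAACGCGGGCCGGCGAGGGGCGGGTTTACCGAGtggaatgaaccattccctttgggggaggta

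Exons of 28 members overlapped another gene on the other strand, those of 8 members a gene on the same strand, and 45 members had neither. Overlap was not counted over all protein-coding genes, so these counts are not read as a trait of the members. Whether counting used the strand was not given, so values of overlapping genes are uncertain.

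Promoters of the members were searched for short motifs, since RefSeq promoter sequences were at hand (250 bases before to 50 after each start, build GRCm38.p6). Of the 78 members 69 matched by symbol, with 75 promoters. The set to compare with was 10941 promoters of detected protein-coding genes and 32851 promoters in all. Nuclear respiratory factor 1 (NRF1), ETS-family factors such as GABP, and YY1 are textbook regulators of nuclear genes for mitochondrial proteins. The NRF1 motif CGCANGCG was in 26.7% of members' promoters, against 17.4% of detected genes' and 8.21% of all promoters. The ETS motif CCGGAAG was in 34.7%, against 17.9% and 8.86%. The YY1 motif AAGATGGCG was in 10.7%, against 3.18% and 1.40%. At least 1 of the 3 was in 44 of 75 promoters (58.7%), against 33.5% and 16.5%.

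Both strands were searched for 14 motifs, and the other 11 follow with their shares in the same 3 sets. GGGCGG (GC box) was in 52.0% of members' promoters, 63.7% of detected genes' and 35.7% of all. TATAAA was in 6.67%, 6.94% and 13.6%, CCAAT in 40.0%, 37.3% and 37.4%, and CACGTG (E box) in 9.33%, 10.1% and 7.15%. ATGGCGGC, a shorter YY1 form that can overlap the longer one, was in 16.0%, 5.06% and 2.24%. TGACGTCA was in 2.67%, 3.01% and 1.79%, and TGACGT, contained in it, in 13.3%, 11.7% and 7.51%. CAAGGTCA, an oestrogen-related receptor motif, was in 2.67%, 0.996% and 1.56%, and AAGGTCA within it in 5.33%, 3.12% and 4.72%. ACTACAA was in 6.67%, 4.17% and 3.24%, and CTANNNNTAG, a MEF2 form, in 8.00%, 3.18% and 3.69%. A match describes letters and not a bound factor.

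**Figure D5:**
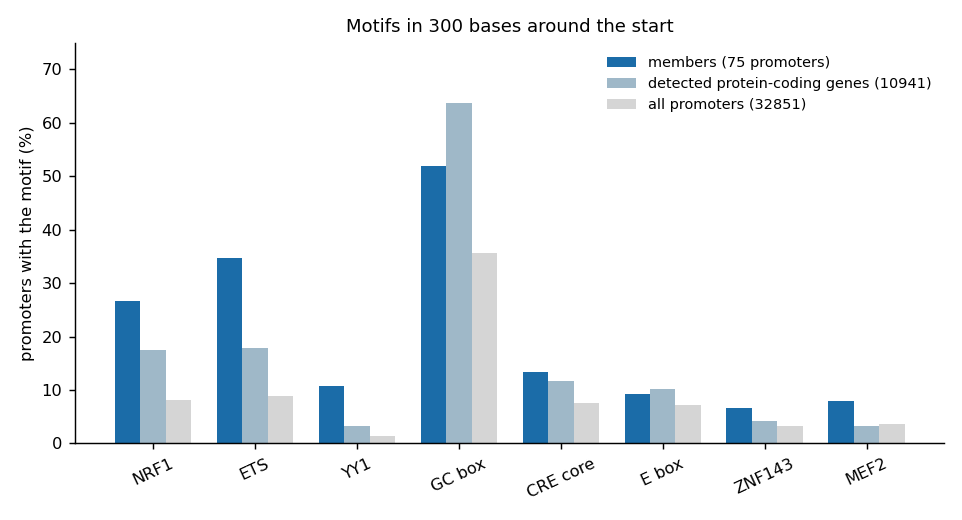
Percentage of promoters (300 bases around the RefSeq start) that hold each of 8 named motifs on either strand, for 75 promoters of members, 10941 of detected protein-coding genes and 32851 in all. The NRF1, ETS and YY1 bars of the members, at 26.7%, 34.7% and 10.7%, lie above those of both other sets.

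The groups with and without these motifs had similar medians. The 44 genes with any of the 3 had a median of 27.4 TPM and the 25 with none 24.6 TPM. Mrps27, the 1 gene with all 3, stood at 15.8 TPM. Windows of 100 bases before to 30 after the start held a match in 33 members, and the 7 with matches of 2 different motifs are printed from the most to the least abundant. They give the positions of the matches, but closeness to the start was fixed by the choice of window. Capitals mark the NRF1, ETS and YY1 matches, on either strand, and the first base of each line is 100 bases before the start.
Mrps21, chr3:95871485-95871614, minus strand: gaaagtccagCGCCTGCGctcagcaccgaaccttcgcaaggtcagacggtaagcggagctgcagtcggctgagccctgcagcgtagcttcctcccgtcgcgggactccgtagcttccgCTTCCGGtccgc
Mrps18a, chr17:46110904-46111033, plus strand: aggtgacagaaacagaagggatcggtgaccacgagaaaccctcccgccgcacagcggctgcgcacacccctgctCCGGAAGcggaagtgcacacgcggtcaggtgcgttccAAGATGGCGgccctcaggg
Mrps26, chr2:130563657-130563786, plus strand: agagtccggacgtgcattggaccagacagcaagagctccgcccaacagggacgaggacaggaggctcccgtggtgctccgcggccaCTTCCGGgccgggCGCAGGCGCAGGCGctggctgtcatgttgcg
Mrpl57, chr14:57826139-57826268, plus strand: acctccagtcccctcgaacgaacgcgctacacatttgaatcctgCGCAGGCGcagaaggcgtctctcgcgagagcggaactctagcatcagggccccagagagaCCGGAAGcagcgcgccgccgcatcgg
Mrpl22, chr11:58171564-58171693, plus strand: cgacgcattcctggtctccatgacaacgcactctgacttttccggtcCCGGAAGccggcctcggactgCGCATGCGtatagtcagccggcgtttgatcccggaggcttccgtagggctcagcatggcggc
Mrpl43, chr19:45006413-45006542, minus strand: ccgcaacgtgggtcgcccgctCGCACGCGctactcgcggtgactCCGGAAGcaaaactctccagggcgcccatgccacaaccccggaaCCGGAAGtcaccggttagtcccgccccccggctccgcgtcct
Mrps27, chr13:99344686-99344815, plus strand: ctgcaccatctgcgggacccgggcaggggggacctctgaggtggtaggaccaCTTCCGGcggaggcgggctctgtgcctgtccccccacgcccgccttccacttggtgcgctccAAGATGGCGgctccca

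In Mrps18a and Mrps27 the YY1 match lies just after the start, at 12 and 15 bases from it, with an ETS match 26 and 48 bases before it. Mrps26 holds 2 NRF1 matches around the start and an ETS match 14 bases before it. Mrpl22 has an ETS match 53 bases and an NRF1 match 32 bases before the start. Mrpl43 has 2 ETS matches, 56 and 12 bases before it. The 7 genes stood between 15.8 TPM (Mrps27) and 115 TPM (Mrps21).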

How the data were processed

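The 2 heart libraries were made from total RNA by a directional protocol with added ERCC RNAs, per the labels. The authors deposited expected counts, or estimated counts for the direct tables, TPM with credibility bounds of the TPM and, per transcript, the percent of a gene's TPM, per the file headers, on mm10 with GENCODE M21. The aligner, the quantifiers and any use of strand are not given in the sources used here. All 55536 gene identifiers matched the annotation.

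TPM was rescaled to endogenous genes. Counts of direct tables were summed per gene. Expected counts were rounded to whole numbers, scaled with TMM in edgeR 4.0.16 (R 4.3.3) and given as log2 ratios with a prior count of 2, with DESeq2 1.42.0 size factors as an alternative. With 1 group of 2 libraries no test was run. Count intervals are exact binomial at 95% and cover counting error only. In simulated data the rule for the replicate ratio (a log2 value of 0.32 in size) found 100 of 100 genes set 2-fold higher and 99 of 100 set 2-fold lower, with 627 of 12295 unchanged genes past it. The simulated spread was set beforehand and not estimated from these libraries, in which 9.76% of protein-coding genes were past the rule. The simulation therefore does not give the error rate of the rule in these data. Divergent starts lay within 1000 bp, and shared words had 31 bases. Other steps used Python 3.11.15 with pandas 2.3.3.

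All members may be named. In full were given the 8 highest and 8 lowest by TPM, the 5 largest ratios in each direction, members past a fold threshold or with an unusual main transcript, and the Mrps18 family, and of each related list its 2 highest and its lowest gene. Members and lists were chosen with earlier results of these data known, and the motifs, complex I and cytosolic ribosomal protein sets after values were seen. RefSeq promoters (GRCm38.p6) share the mm10 coordinates.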

Additional observations from a re-analysis of the deposited data

How the results depend on the processing

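No paired analysis was possible because the labels give 1 group. The 7 results were recomputed under 37 alternatives, and 27 values stayed within the spread between the libraries or, for counts, within 1.5 times. The median TPM became 80.9 when scaled over nuclear protein-coding genes. Scaled to spike-in totals, the median log2 ratio of the members became 0.26, where all protein-coding genes had 0.22, and 22 members were past 0.32 in size. With direct estimated counts 0 members were. The ratio of large to small subunit levels was 1.15 by means. Between the kinds of table, 1 to 2 members lay 1.5-fold apart with a library left out: without replicate 2, Mrps18c (40.0 against 25.3 TPM) joined Mrpl23. The median main-transcript share was 78.01% in the direct tables, 90.8% with no minimum, and 90.74% to 90.85% with a library left out. Of 51 values for 10 single genes, 46 kept their direction. Under spike-in scaling the log2 ratios of Mrps30 (0.029), Mrps24 (0.063), Mrpl43 (0.073), Mrps12 (0.075) and Mrpl9 (0.099) turned positive. The cause of these differences was not tested. Mrpl23 rested on 20.2 counts in replicate 1, and its log2 ratio was 0.11 in the direct tables.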
